A study of Homo sapiens with 6 samples.

Results

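The transcription factor NF-κB was followed through 10 genes in AC16 cells at 28 °C and at 37 °C. They comprised the 5 genes of its subunits (NFKB1, NFKB2, RELA, RELB and REL) and 5 genes of proteins that hold it back or modify it in the nucleus (NFKBIA, NFKBIE, NFKBIZ, TNFAIP3 and BCL3). These genes, and the gene lists used below, were chosen with earlier results of these data known, so counts over them are descriptions. The 10 were taken by name. Each was read from the array feature that carries its symbol alone, with older symbols brought up to date. Every one of the 10 had exactly 1 such feature, out of 22411 genes with a symbol of their own and 70523 features on the array. AC16 is a human line obtained by fusing adult ventricular cells with transformed fibroblasts. Its total RNA was hybridised to 6 Affymetrix arrays, 3 of AC16 cells held at 28 °C for 6 h (hypothermia) and 3 of AC16 cells held at 37 °C for 6 h (control), both in the same serum-containing medium under 5% CO2. Neither labels nor methods state that the 3 samples at a temperature were separate cultures, so the p-values rest on a spread among samples that may be only technical. Values are log2 signals as the authors deposited them, and 1 unit is a doubling of signal. Cells of 1 line were compared in bulk, so fewer cells of a type and less RNA per cell cannot be told apart.

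In unstimulated cells NF-κB dimers are held in the cytoplasm by the IκB proteins, of which NFKBIA encodes IκBα and NFKBIE encodes IκBε. Cytokines and microbial products activate the IKK complex, which phosphorylates the IκB proteins, and these are then ubiquitinated by the ligase that contains BTRC and destroyed. The freed dimers enter the nucleus, bind κB sites and raise the genes of inflammation, of survival and of their own inhibitors, so NFKBIA and TNFAIP3 RNA are commonly read as signs that the pathway has run. In the heart the pathway takes part in the response to ischaemia and reperfusion.

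Promoter windows of the members are shown because several hold the κB consensus, the motif that NF-κB dimers bind. RefSeq (build GRCh38.p14) gave 13 windows for 8 of the 10 members, each with 250 bases before and 50 after a transcription start. The κB consensus was found on either strand in 9 of the 13 windows and in 7 of the 8 genes (NFKB1, NFKB2, REL, NFKBIA, NFKBIZ, TNFAIP3 and BCL3). It was found in 11.3% of all 35116 windows and in 13.3% of the 27305 genes that have one. Such a match is a run of letters and not a shown binding site. The 10 letters GGGAATTTCC occurred in NFKB1, REL, NFKBIA and NFKBIZ, on the reverse strand in REL and NFKBIA. The matches began 49 bases before the start in NFKB1, 81 in NFKBIA, 223 in the first and 239 in the second of the 2 windows of NFKBIZ, and 67 and 55 in TNFAIP3, as counted at the end farthest from the start. REL held overlapping matches 47 and 46 bases before its start, NFKB2 held matches in 2 of its 3 windows, and in BCL3 the match lay just after the start. Neither of the 2 windows of RELA held the consensus, which says only that these letters are absent there. The AP-1 letters TGANTCA were in 0 of the 13 windows and in 7.71% of all windows. The 250 bases before the start follow for NFKB1 and for the 3 inhibitors with a match before the start, 5′ to 3′ along the gene, with the κB matches in capitals (a reverse-strand match is seen as its reverse complement). NFKB1 (chr4:102501109-102501358, plus strand), NFKBIZ (chr3:101827740-101827989, plus strand) and TNFAIP3 (chr6:137867009-137867258, plus strand) are read forward, and NFKBIA (chr14:35404750-35404999, minus strand) in reverse. For NFKB1 and NFKBIZ the first window is shown.
NFKB1: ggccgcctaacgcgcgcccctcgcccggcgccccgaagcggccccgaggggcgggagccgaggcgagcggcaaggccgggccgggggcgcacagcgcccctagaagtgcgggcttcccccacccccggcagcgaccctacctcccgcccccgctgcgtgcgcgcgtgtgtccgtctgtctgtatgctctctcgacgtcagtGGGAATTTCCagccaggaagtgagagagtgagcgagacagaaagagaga
NFKBIA: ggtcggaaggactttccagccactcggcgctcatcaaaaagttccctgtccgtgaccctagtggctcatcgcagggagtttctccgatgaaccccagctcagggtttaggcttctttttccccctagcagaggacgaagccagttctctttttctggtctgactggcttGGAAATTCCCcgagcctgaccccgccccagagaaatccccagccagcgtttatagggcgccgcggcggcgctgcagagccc
NFKBIZ: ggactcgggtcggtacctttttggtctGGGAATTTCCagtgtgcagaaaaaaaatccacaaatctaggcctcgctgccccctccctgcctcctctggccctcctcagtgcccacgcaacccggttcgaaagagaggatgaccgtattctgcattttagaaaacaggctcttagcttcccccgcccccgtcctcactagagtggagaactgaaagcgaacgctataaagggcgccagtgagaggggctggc
TNFAIP3: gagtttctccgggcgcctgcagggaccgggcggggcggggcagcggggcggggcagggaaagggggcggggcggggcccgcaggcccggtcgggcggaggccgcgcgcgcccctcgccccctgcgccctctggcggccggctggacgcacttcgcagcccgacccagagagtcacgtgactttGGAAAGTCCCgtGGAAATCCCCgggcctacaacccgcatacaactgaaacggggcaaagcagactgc

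No member passed the test at 28 °C. The difference of 28 °C from 37 °C was fitted in limma, p-values were adjusted by the Benjamini-Hochberg method over the 70523 features, and the threshold was an adjusted p under 0.05. Of the 10 members 0 were called, against 0.818% of all features and 1.2% of the 22411 genes. The smallest adjusted p among them was 0.131, for NFKB1. At an unadjusted p under 0.05, 5 of the 10 passed (NFKB1, RELA, NFKBIE, NFKBIZ and TNFAIP3), against 11.5% of all features and 14.7% of the genes. In the same 5 genes the 3 hypothermia arrays and the 3 control arrays did not overlap, which held for 17.9% of all features and 25.3% of the genes. Of the 5, RELA and NFKBIZ had the higher signals at 28 °C, and NFKB1, NFKBIE and TNFAIP3 the lower. The random variance model named in the methods also called 0 members, with 5 at an unadjusted p under 0.05. The median log2 fold change of the members was 0.01, beside 0.03 over all features, and 5 had a higher and 5 a lower mean at 28 °C.

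**Figure D1:**
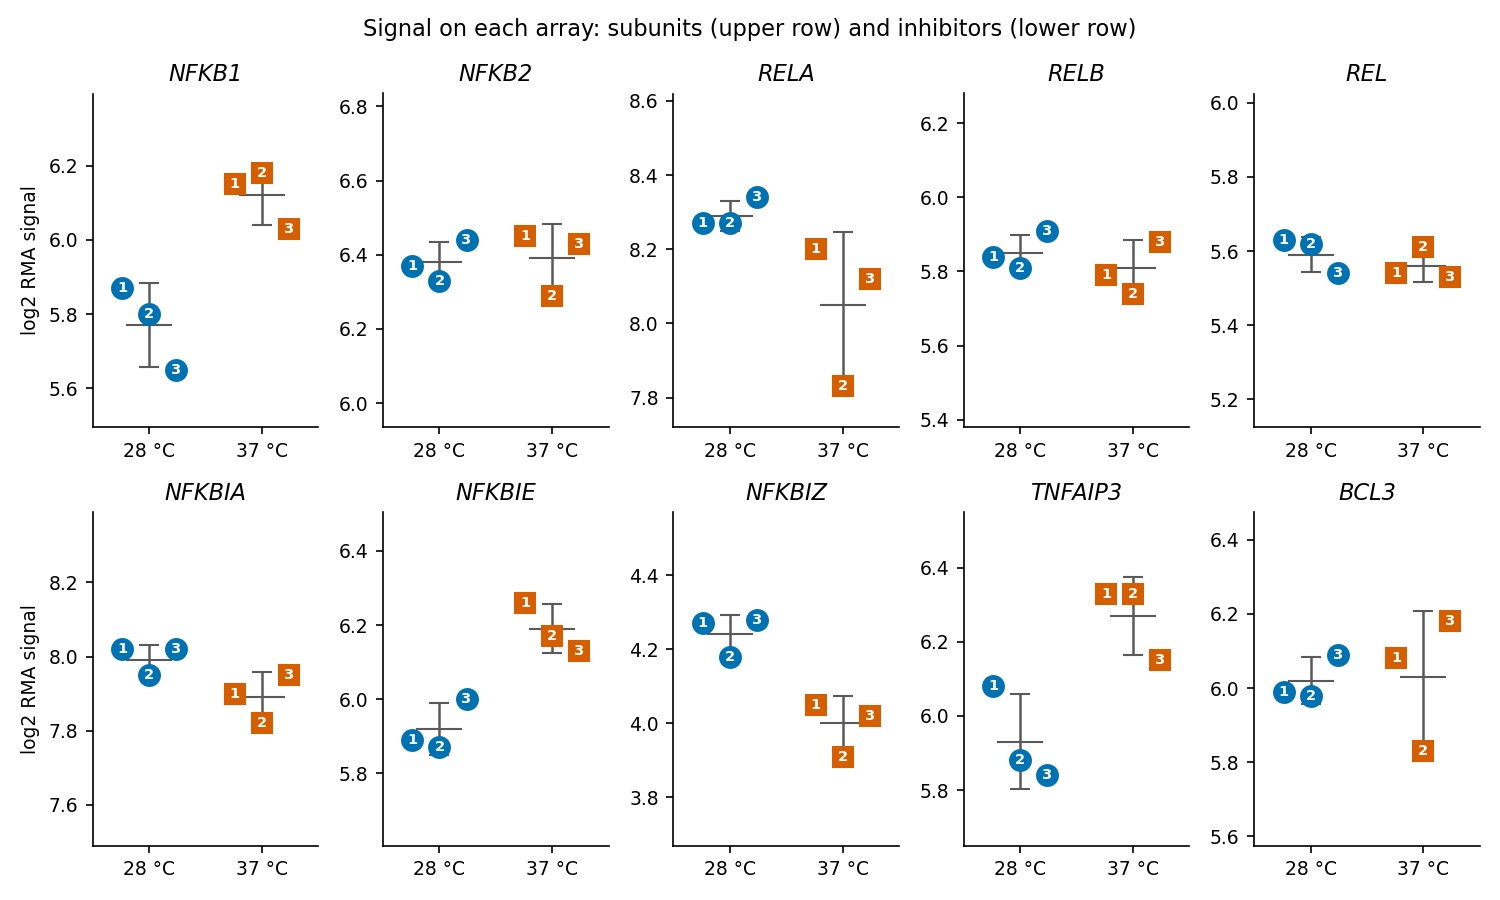
Log2 RMA signal (vertical axes, each spanning the same range of log2 units) of the 10 genes on the 3 hypothermia arrays (28 °C, circles) and the 3 control arrays (37 °C, squares), with the replicate number in each symbol, and the mean with the SD as a bar. NFKB1, NFKBIE and TNFAIP3 lie wholly lower at 28 °C, RELA and NFKBIZ wholly higher, and the other 5 overlap.

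Among the subunits NFKB1 had the largest difference. It encodes the precursor that is processed to p50, the DNA-binding partner of RELA. Its log2 signals were 5.87, 5.80 and 5.65 at 28 °C and 6.15, 6.18 and 6.03 at 37 °C. All hypothermia arrays were below all control arrays, with hypothermia replicate 3 lowest and control replicate 3 nearest to the hypothermia arrays. The hypothermia mean was 5.77 ± 0.113 and the control mean 6.12 ± 0.0806 (SD, n = 3 each), for a log2 fold change of -0.35 ± 0.0809 (SE, limma adjusted p = 0.131). As a ratio this is 0.784, with a 95% interval of 0.689 to 0.893 that is not adjusted for the number of features. With array weights, which count the noisier arrays for less, NFKB1 was the 1 member past the threshold (log2 fold change -0.37, adjusted p = 0.0492 from limma). That fit called more of the 70523 features in general, 379 higher and 1107 lower, against 160 and 417 without weights.

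RELA, which encodes the p65 subunit with the transactivation domain, had its difference in the other direction. Its log2 signals were 8.27, 8.27 and 8.34 at 28 °C and 8.20, 7.83 and 8.12 at 37 °C. The hypothermia arrays lay close together and the controls were spread, with control replicate 2 far below the other 2. The log2 fold change was 0.25 ± 0.1 (SE, limma adjusted p = 0.403), and without control replicate 2 it was 0.14 (adjusted p = 0.645 from limma). NFKB1 and RELA RNA were also set against each other within each array, a comparison chosen after their values were seen. The log2 difference NFKB1 minus RELA was -2.40, -2.48 and -2.69 at 28 °C and -2.05, -1.65 and -2.09 at 37 °C. The mean at 28 °C minus that at 37 °C was -0.60, given as a description with no test, since both genes already separated the groups in opposite directions. These values compare changes only, since the features of different genes have no common scale.

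The other 3 subunits showed no separation of the groups. NFKB2 encodes the precursor of p52 and RELB its usual partner in the alternative pathway, and REL encodes c-Rel, best known from lymphoid cells. NFKB2 had log2 signals of 6.37, 6.33 and 6.44 at 28 °C and 6.45, 6.29 and 6.43 at 37 °C. RELB had 5.84, 5.81 and 5.91 at 28 °C and 5.79, 5.74 and 5.88 at 37 °C. In both genes control replicate 2 was the lowest of the 6 arrays. REL had 5.63, 5.62 and 5.54 at 28 °C and 5.54, 5.61 and 5.53 at 37 °C. The ratios of 28 °C to 37 °C were 0.993 for NFKB2 (95% interval 0.884 to 1.11), 1.03 for RELB (0.927 to 1.15) and 1.02 for REL (0.925 to 1.13). The intervals bound the difference of these RNAs between the groups but do not show it to be 0.

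The classical inhibitors NFKBIA and NFKBIE had differences of opposite sign. NFKBIA, whose RNA is a rapid target of the factor, had log2 signals of 8.02, 7.95 and 8.02 at 28 °C and 7.90, 7.82 and 7.95 at 37 °C. The groups met at control replicate 3 and hypothermia replicate 2. The log2 fold change was 0.10 ± 0.0659 (SE, limma adjusted p = 0.594), a ratio of 1.07 with a 95% interval of 0.967 to 1.19. It was 0.07 on the log2 scale without control replicate 2 and 0.04 with the mean of each array's brighter background features as a covariate (limma adjusted p = 0.845 and 0.917). NFKBIE had 5.89, 5.87 and 6.00 at 28 °C and 6.26, 6.17 and 6.13 at 37 °C. Its hypothermia arrays were all below its control arrays, with hypothermia replicate 3 and control replicate 3 nearest to each other. The log2 fold change was -0.27 ± 0.0696 (SE, limma adjusted p = 0.169), a ratio of 0.828 with an interval of 0.741 to 0.926. Within each array NFKBIE minus NFKBIA was -2.13, -2.08 and -2.02 at 28 °C and -1.64, -1.65 and -1.82 at 37 °C, and this pair too was chosen after its values were seen. The mean at 28 °C minus that at 37 °C was -0.38, again with no test.

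TNFAIP3 encodes the ubiquitin-editing enzyme that shuts down signalling from the TNF receptor to IKK. Its log2 signals were 6.08, 5.88 and 5.84 at 28 °C and 6.33, 6.33 and 6.15 at 37 °C. The groups were apart by only 0.0691, between hypothermia replicate 1 and control replicate 3. The log2 fold change was -0.34 ± 0.0892 (SE, limma adjusted p = 0.183), a ratio of 0.791 with a 95% interval of 0.686 to 0.913. Of the 2 members whose RNA is most used as a readout of the pathway, NFKBIA thus had a slightly higher and TNFAIP3 a lower mean at 28 °C, neither past the threshold.

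NFKBIZ and BCL3 encode atypical IκB proteins that act in the nucleus on promoters bound by p50 or p52. NFKBIZ had log2 signals of 4.27, 4.18 and 4.28 at 28 °C and 4.05, 3.91 and 4.02 at 37 °C. All hypothermia arrays were above all control arrays. The log2 fold change was 0.25 ± 0.0681 (SE, limma adjusted p = 0.205), a ratio of 1.19 with a 95% interval of 1.06 to 1.32. The 23 background features of the array had means from 1.76 to 10.9, so no level parts signal from background, and a dim feature such as that of NFKBIZ may understate a change. BCL3 had 5.99, 5.98 and 6.09 at 28 °C and 6.08, 5.83 and 6.18 at 37 °C. Its control arrays enclosed the hypothermia arrays, with control replicate 2 lowest and control replicate 3 highest. The ratio was 0.994 with a 95% interval of 0.851 to 1.16, the widest on the log2 scale after that of RELA.

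**Figure D2:**
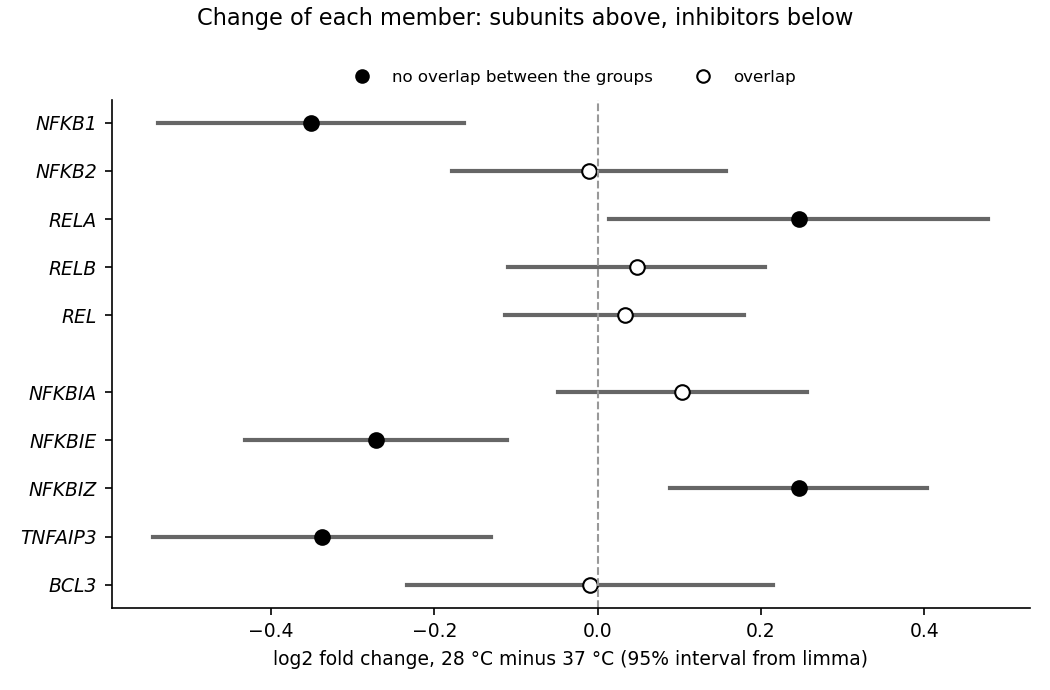
Log2 fold change (28 °C minus 37 °C, horizontal axis) of each gene with its 95% interval from limma, not adjusted for the number of features. Filled points mark the 5 genes whose groups do not overlap, and their intervals exclude 0. The other 5 intervals include 0, and no gene passed the adjusted threshold.

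The 10 genes did not vary alike from array to array. Control replicate 2 was the lowest of the 6 arrays for 6 members (NFKB2, RELA, RELB, NFKBIA, NFKBIZ and BCL3), and the highest for 1 (NFKB1). Hypothermia replicate 3 was the highest for 3 (RELA, RELB and NFKBIZ) and the lowest for 2 (NFKB1 and TNFAIP3). Control replicate 1 was the highest for 3 (NFKB2, NFKBIE and TNFAIP3). How often each array was lowest or highest over all genes was not counted, so these counts are not particular to the members. The mean of the 11 brighter background features was 6.40, 6.39 and 6.49 on the hypothermia arrays and 6.20, 6.10 and 6.47 on the control arrays. Control replicate 2 was thus lowest there as well, and control replicate 3 was like the hypothermia arrays. With this mean as a covariate the log2 fold changes were -0.26 for NFKB1, -0.23 for TNFAIP3, -0.26 for NFKBIE, 0.20 for NFKBIZ and 0.15 for RELA, with adjusted p-values from limma of 0.373 to 0.786. The signs of these 5 were the same in each of the 16 alternative fits run for them, though in most of these fits they could not have changed. Filters, variance models and a block for the replicate number leave the fold change as it is. Array weights or leaving out 1 array cannot reverse it where the groups do not overlap. Only the other scalings and the covariate could have done so.

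**Figure D3:**
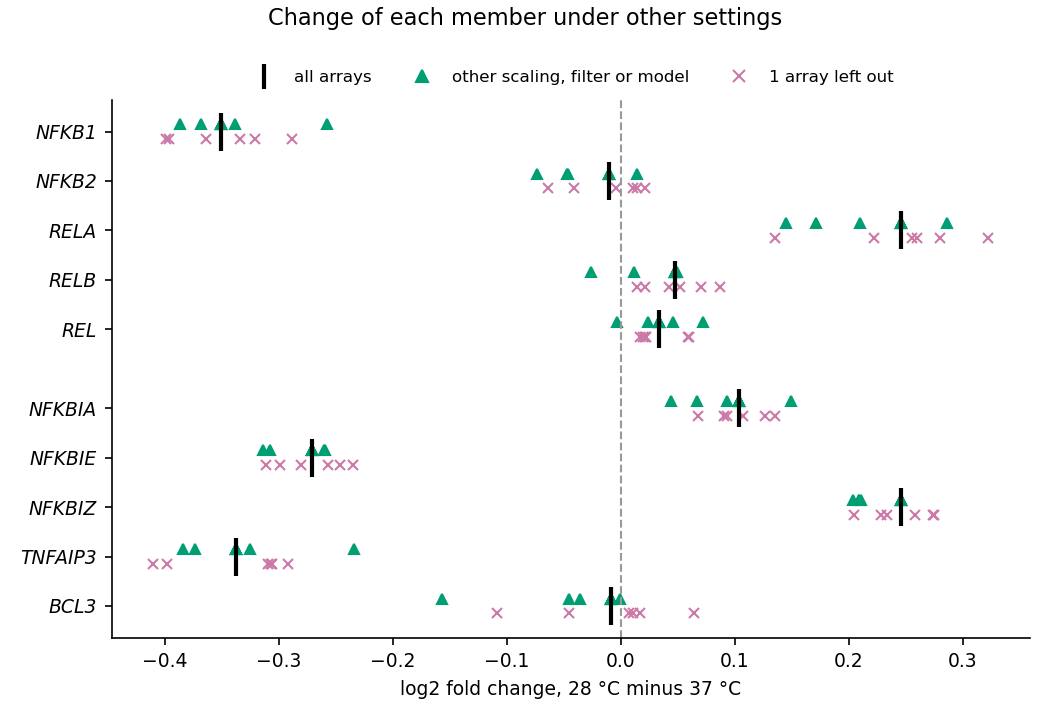
Log2 fold change (28 °C minus 37 °C, horizontal axis) of each gene with all arrays (black bars), with another scaling, filter or model (triangles), and with 1 array left out (crosses). NFKB1, RELA, NFKBIA, NFKBIE, NFKBIZ and TNFAIP3 keep their sign throughout, while NFKB2, RELB, REL and BCL3 lie near 0 with all arrays and change sign in some fits. Filters, variance models and a block for the replicate number leave each value as it was.

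The genes whose 6 signals were most like those of NFKB1, the member with the smallest adjusted p, were PWWP2A, NEK4 and INPP5F. Their Pearson correlations with NFKB1 over the 6 arrays were 0.9968, 0.9952 and 0.9928, the highest of 22401 genes. So many genes were searched over so few arrays that values of this size are given only as a description. None of the 3 passed the threshold, with log2 fold changes of -0.26, -0.26 and -0.25 and adjusted p = 0.174, 0.213 and 0.219 from limma.

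The rest of the pathway was read from 4 lists of genes that hold none of the members. Most genes on them had small differences, and 5 passed the threshold, which 1.2% of all 22411 genes did. These lists measured 14 of 14 other inhibitors, 21 of 28 genes of the IKK complex and the steps above it, 17 of 20 ligands and receptors, and 30 of 34 target genes, the remainder not being analysed here. Their median log2 fold changes were -0.04 for the other inhibitors, -0.12 for the IKK list, 0.02 for the ligands and receptors and 0.05 for the targets, against 0.03 over all features. Among the 14 other inhibitors 1 rose and 0 fell, beside the same 1.2% of all genes. The 1 was ZC3H12A, which encodes the RNase Regnase-1 that degrades inflammatory messenger RNAs. It had log2 signals of 6.61, 6.73 and 6.76 at 28 °C and 5.93, 5.90 and 6.11 at 37 °C, with no overlap. It rose 1.65-fold, or by 0.72 ± 0.0816 on the log2 scale (SE, limma adjusted p = 0.0105). It missed the threshold without hypothermia replicate 2 or 3 or control replicate 1 (adjusted p = 0.0551, 0.0507 and 0.0643 from limma), and with the brighter background as a covariate (adjusted p = 0.0523 from limma). Its log2 fold change with 1 array left out was 0.680 to 0.786.

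In the IKK list 0 of the 21 genes rose and 1 fell, beside 1.2% of all genes called. The 1 was BTRC, which encodes the F-box protein that recognises phosphorylated IκB. Its log2 signals were 6.20, 6.20 and 6.14 at 28 °C and 6.65, 6.80 and 6.58 at 37 °C, with no overlap, and its log2 fold change was -0.50 ± 0.0753 (SE, limma adjusted p = 0.032). With 1 array left out its log2 fold change was -0.546 to -0.435. The call was kept without control replicate 3 (limma adjusted p = 0.0295) and lost without control replicate 2 (0.0724), control replicate 1 (0.132), or hypothermia replicate 1, 2 or 3 (0.123, 0.131 and 0.135). It was also lost with the brighter background as a covariate (adjusted p = 0.116 from limma). For FBXW11, the paralogue of BTRC with the same known role, it was -0.20 (limma adjusted p = 0.366). MAP3K7, the kinase TAK1 that activates IKK, had -0.46 (adjusted p = 0.105). The kinases of the complex itself, CHUK and IKBKB, had -0.24 and -0.12, and its scaffold IKBKG had 0.05, none past the threshold. Across the IKK list the 2 groups of arrays did not overlap for 10 of the 21 genes, 9 of them lower and 1 higher at 28 °C, beside 25.3% of all genes (3093 lower and 2574 higher of 22411). At an unadjusted p under 0.05 the list had 6 genes lower and 1 higher, beside 2083 lower and 1211 higher of all 22411 genes (14.7%). The genes named beside BTRC were chosen for their role after the list had been seen.

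Of the 17 ligands and receptors none passed in limma, beside 1.2% of all genes. An unadjusted p under 0.05 was found for 2 of the 17, beside 14.7% of all genes. The groups did not overlap for 4 that were higher and 1 that was lower at 28 °C, 5 of 17 beside 25.3% of all genes. IL1B, the gene of a cytokine that activates the pathway, had log2 signals of 5.37, 5.18 and 5.21 at 28 °C and 5.67, 5.71 and 5.60 at 37 °C. Its groups did not overlap, and its log2 fold change was -0.41 (adjusted p = 0.064 from limma). LTBR, a receptor of the alternative pathway, had 0.20, also with no overlap (adjusted p = 0.423 from limma). The random variance model also called none, and array weights or a filter at the 50th percentile of the signal called 1 lower.

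Of the 30 target genes 2 rose and 1 fell in limma, and 21 had a higher and 9 a lower mean at 28 °C. Of all 22411 genes, 96 rose and 173 fell (1.2% called), and 13364 had a higher and 9047 a lower mean. The groups did not overlap for 8 targets that were higher and 2 that were lower at 28 °C, 10 of 30 beside the same 25.3% of all genes. CXCL8, a neutrophil chemokine, rose 4.14-fold, with log2 signals of 7.14, 6.91 and 6.93 at 28 °C and 5.01, 5.09 and 4.75 at 37 °C, and passed with any 1 array left out (adjusted p of 0.00527 to 0.0234 from limma). Its ratio had a 95% interval of 3.49 to 4.92, while that of each member lay between 0.686 and 1.39. IER3, an early gene that modulates survival, rose 1.56-fold, with 8.67, 8.59 and 8.76 at 28 °C and 8.18, 7.86 and 8.06 at 37 °C (adjusted p = 0.0291 from limma). All 6 features of IER3 passed. The name of the one used here places it on an alternate version of chromosome 6, so the 6 may be copies of 1 locus and do not count as separate measurements. The feature used missed the threshold with any 1 array left out (adjusted p of 0.0512 to 0.121 from limma), with log2 fold changes of 0.555 to 0.717. CCL2, a monocyte chemokine, was the 1 that fell, to 6.38, 6.06 and 5.84 at 28 °C, against 7.17, 7.12 and 6.81 at 37 °C (log2 fold change -0.94, adjusted p = 0.0366 from limma). With 1 array left out, CCL2 passed when that array was control replicate 3 or hypothermia replicate 1, and missed in the other 4 fits (limma adjusted p as high as 0.178). Its log2 fold change with 1 array left out was -1.08 to -0.813. Both IER3 and CCL2 missed the threshold with the brighter background as a covariate (adjusted p = 0.158 and 0.174 from limma). Other well-known targets were picked after their values were seen. The chemokine genes CXCL1, CXCL2 and CXCL3 had log2 fold changes of 0.35, 0.31 and 0.17 with no overlap (limma adjusted p = 0.0545, 0.136 and 0.371). In the chemokine genes CXCL5, CXCL6, CXCL10, CCL5 and CCL20 the groups overlapped, at 0.10, 0.03, 0.05, 0.05 and -0.07. F3, PTX3 and TNFAIP6 were lower, at -0.27, -0.25 and -0.11 (limma adjusted p = 0.38, 0.472 and 0.541), with no overlap in TNFAIP6 only. IL6 and ICAM1 had ratios of 1.04 (95% interval 0.938 to 1.15) and 1.02 (0.894 to 1.16).

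**Figure D4:**
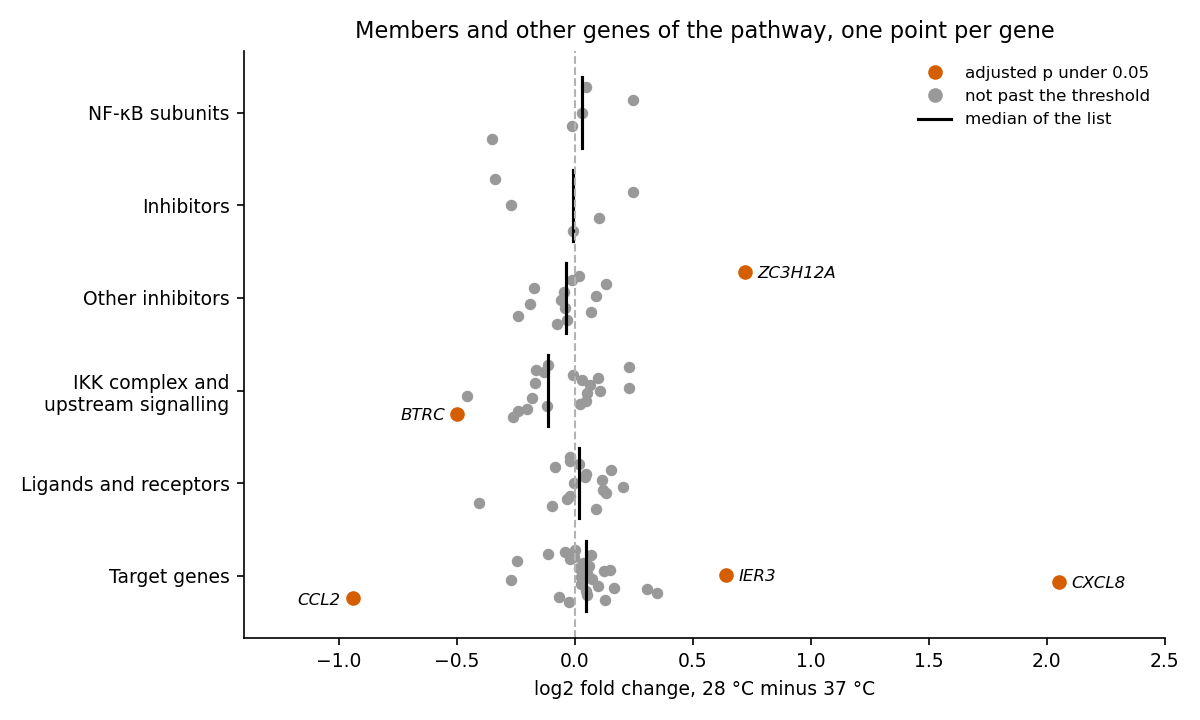
Log2 fold change (28 °C minus 37 °C, horizontal axis) of the subunits, the inhibitors and the 4 other lists, 1 point per gene, with the median of each list as a black line. The 5 genes past an adjusted p under 0.05 are named, CXCL8, ZC3H12A and IER3 on the right and CCL2 and BTRC on the left, and no member is among them.

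The κB consensus stood in the windows of 14 of the 26 target genes that have one. It was not in the windows of CXCL8 and ZC3H12A, which says only that the exact letters are absent there. The window of CXCL8 held TGGAATTTCC, which differs from GGGAATTTCC in its first letter only. It also held 1 match to the AP-1 letters 137 bases before its start. Among all genes called higher at 28 °C the κB consensus was found in 16 of the 77 with a window (20.8%), among those called lower in 17 of 140 (12.1%), and among all genes in 13.3%. The shares in the other lists were 6 of 13 genes for the other inhibitors, 2 of 17 for the IKK list and 3 of 15 for the ligands and receptors. These shares are given as counts, with no test, and base composition was not compared.

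The median log2 signals were 3.39, 3.39 and 3.41 at 28 °C and 3.33, 3.34 and 3.40 at 37 °C. RMA brings the arrays to a common distribution, so these medians do not show that the RNA amounts were alike. No 2 arrays held the same values. In all, 160 features were higher and 417 lower at 28 °C. Of the cardiomyocyte markers 11 were measured, with mean log2 signals from 2.28 for RYR2, the calcium release channel, to 6.88 for GATA4, a cardiac transcription factor. MEF2C, RYR2 and TTN lay below the median background feature of every array, and the contractile genes MYH6 and MYH7 averaged 4.20 and 4.61 at 28 °C and 4.11 and 4.49 at 37 °C. Of 8 fibroblast markers, the mean log2 signal was lowest for DCN (2.98) and highest for VIM, with COL1A1 at 10.6 at 28 °C and 10.5 at 37 °C. Leukocytes, in which RELB and REL are abundant, were checked with 11 markers, all with a slightly higher mean at 28 °C and none past the threshold. The mean log2 signal of that list was 3.93 to 3.97 on the hypothermia arrays and 3.83 to 3.95 on the control arrays. PTPRC, the gene of the common leukocyte antigen, had means of 2.20 at 28 °C and 2.17 at 37 °C, below the median background feature of every array (2.47 to 2.60), while CD68, a macrophage marker at the other end of the list, had 8.62 at 28 °C and 8.49 at 37 °C. The 5 endothelial markers lay between 2.65 for PECAM1 and 4.21 for VWF, 2 with a higher and 3 with a lower mean at 28 °C and none past the threshold. All 11 cardiomyocyte markers were likewise slightly higher at 28 °C, and of all 22411 genes 13364 had a higher mean there. The part of such small shifts in the values of the members was not tested.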

How the data were processed

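Total RNA of 3 hypothermia and 3 control samples of AC16 cells was labelled with biotin and hybridised to Affymetrix arrays. The deposited log2 values are RMA output. RMA subtracts background, brings the arrays to a common distribution and condenses each feature's probes to 1 value, so any shift shared by all genes would be removed. The version and settings of RMA were not given in the sources used here. Nothing was normalized further.

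Symbols came from a platform table, renewed through RefSeq (GRCh38.p14) for 23777 of 23781 features with 1 symbol. For genes with several features the brightest on average was used. A linear model with the group as its only term was fitted per feature (lmFit and eBayes of limma 3.58.1, R 4.3.3), with Benjamini-Hochberg adjustment over 70523 features. The members and lists were chosen with earlier results of these data known. By rule, the text names all members, up to 3 called genes of each list in each direction or else the 2 with the smallest p, the 3 genes most like 1 member, and markers at the ends of their lists. Genes named outside it were picked after their values were seen. They were FBXW11, MAP3K7, CHUK, IKBKB, IKBKG, CXCL1, CXCL2, CXCL3, CXCL5, CXCL6, CXCL10, CCL5, CCL20, F3, PTX3, TNFAIP6, IL6, ICAM1 and some markers. The κB consensus and TGANTCA were searched on both strands of the RefSeq windows. Alternatives were other scalings, filters, variance models, array weights, a covariate, a block for the replicate number, and fits lacking 1 array each. The fits were tested on simulated data.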

Additional observations from a re-analysis of the deposited data

How the results depend on the processing

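No member was called lower or higher under any alternative run except array weights, which called 1 lower (NFKB1). NFKB1, RELA, NFKBIA, NFKBIE, NFKBIZ and TNFAIP3 kept the direction of their difference in all 16 alternatives. Filters, variance models and the replicate block do not change the value, so these fits could not reverse it. Nor could array weights or leaving out 1 array where the groups do not overlap. NFKB2, RELB, REL and BCL3 had values near 0 with all arrays. NFKB2 had a log2 fold change of 0.0143 after quantile normalization and -0.0637 to 0.0210 with 1 array left out, RELB -0.0265 with the brighter background as a covariate, REL -0.0035 with arrays centred on their medians, and BCL3 -0.109 to 0.0642 with 1 array left out and -0.157 with the covariate (adjusted p = 0.624 from limma). Centring moved all values by 0.0364. The mean of several features per gene was not run, as each member has 1.

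Over all features, 160 higher and 417 lower became 249 and 628 with a filter at the 50th percentile, 379 and 1107 with array weights, and 66 and 105 with the covariate. With 1 array left out they became 60 to 214 higher and 112 to 799 lower. The random variance model, which the methods name for the array comparison, called 172 higher and 447 lower. An ordinary t-test with the same adjustment called 0 and 0, and at an unadjusted p under 0.05 it passed 4 members. The t-test also called 0 genes in each of the other lists. Among the other inhibitors the covariate called 0 higher, and leaving out 1 array 0 to 1. In the IKK list the covariate called 0 lower, array weights 2 and leaving out 1 array 0 to 2. Among ligands and receptors the 50th percentile filter and array weights each called 1 lower. Among targets the covariate called 1 higher and 0 lower, quantile normalization 0 lower, and leaving out 1 array 1 higher in each fit and 0 to 1 lower. The filters at the 25th and 50th percentile and array weights each called 3 targets higher.

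The labels join same-numbered arrays only by a number. Their deviations from the group means correlated at -0.08, 0.11 and 0.22, and those of arrays with different numbers at -0.25 to 0.131. Deviations from a mean of 3 arrays sum to 0, so these correlations cannot decide whether the arrays were paired. With the replicate block 122 features were higher and 304 lower, 0 genes of the IKK list were lower (BTRC, adjusted p = 0.0545 from limma), and 0 members were called. With 3 arrays per group the number of arrays limits the precision.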
